A study of Mus musculus with 18 samples.

Results

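Peaks of open chromatin over pseudogenes were described in mouse embryonic stem cells. A peak was taken where it lay on an autosome, its midpoint fell inside a gene annotated as pseudogene or transcribed_pseudogene in the RefSeq annotation of GRCm38.p6, and that midpoint was over 2 kb from every annotated end of a protein-coding gene. The rule took 2079 of 166066 merged peaks, or of 160099 on autosomes, and used positions alone. A further 110 autosomal peaks had their midpoint in a pseudogene but lay within 2 kb of a protein-coding end. The nearest peaks on either side of that limit were at 2001 bp, over Gm2260, and at 1981 bp, over 6330549D23Rik and Rpl19-ps11.

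All cells were of the line dTKO, with the genotype given as Suv39h1fl/fl, Suv39h2-/- and Setdb1fl/fl, 3 enzymes that methylate histone H3 at lysine 9, a mark of silent chromatin. ATAC-seq, which cuts adapters into accessible DNA with a transposase, was run on 18 libraries, 3 biological repeats at each of 0, 3, 6, 12, 24 and 48 h in medium with auxin (100 µg/ml) and dTAG13 (0.5 µM), agents that degrade tagged proteins. The labels put both agents on every library, 0 h included, and name no tagged protein. The peaks analysed here are a single merged list over all libraries that gives positions and neither counts nor libraries, so depth is unknown, no comparison between times was made and repeats give no spread. Intervals are 95% intervals that cover counting error over peaks or pseudogenes, Wilson for shares and exact Poisson for densities. Where 0 of n pseudogenes held a peak, the limit given in place of a Wilson interval is 3 counts of n. Neighbouring peaks and copies of a gene share sequence and position and are not replicates, so no test between groups of regions was run.

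A pseudogene is a copy or remnant of a gene that no longer encodes the full protein. Processed pseudogenes arise when a messenger RNA is copied into DNA and inserted elsewhere, so they are short, carry no introns and usually leave the promoter of the parent behind, and they are most numerous for highly expressed genes such as those of ribosomal proteins. Unprocessed pseudogenes are decayed duplicates that lie beside working relatives, as in the clusters of odorant and pheromone receptor genes. In embryonic stem cells H3 lysine 9 methylation covers many repeated sequences and zinc finger gene clusters.

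Sequence could be read for those peaks that hold a whole promoter window of the RefSeq table (build GRCm38.p6, 250 bases before to 50 bases after a transcript start). The table has 0 windows for pseudogenes themselves, but 17 of its 32851 windows, all of other genes, touched a peak over a pseudogene and 8 lay whole in one. Of these 8, the 4 below hold the most CG pairs. They are transcript starts of overlapping genes inside such peaks, from 2 long noncoding RNA genes and 2 protein-coding genes. They run 5′ to 3′ on the strand of the gene they belong to, in lower case with each CG pair in capitals.
Gm32952: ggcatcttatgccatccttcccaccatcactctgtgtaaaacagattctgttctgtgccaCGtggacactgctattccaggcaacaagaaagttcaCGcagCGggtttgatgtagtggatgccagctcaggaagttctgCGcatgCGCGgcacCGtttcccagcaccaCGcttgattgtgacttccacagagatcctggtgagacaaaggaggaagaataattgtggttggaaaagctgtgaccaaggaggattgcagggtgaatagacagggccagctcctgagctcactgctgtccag
Gm13165: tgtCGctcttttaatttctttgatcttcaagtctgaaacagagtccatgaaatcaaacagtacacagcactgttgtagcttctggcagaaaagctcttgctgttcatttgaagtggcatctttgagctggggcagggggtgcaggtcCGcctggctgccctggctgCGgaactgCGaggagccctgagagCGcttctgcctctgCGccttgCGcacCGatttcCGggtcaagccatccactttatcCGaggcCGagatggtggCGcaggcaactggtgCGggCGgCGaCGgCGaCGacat
Cox7a2: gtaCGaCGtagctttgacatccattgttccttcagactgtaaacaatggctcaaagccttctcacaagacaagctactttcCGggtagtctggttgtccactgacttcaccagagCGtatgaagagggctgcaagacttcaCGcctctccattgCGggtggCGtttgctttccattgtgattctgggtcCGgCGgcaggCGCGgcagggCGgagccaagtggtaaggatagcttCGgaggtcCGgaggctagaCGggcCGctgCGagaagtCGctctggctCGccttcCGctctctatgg
Inhba: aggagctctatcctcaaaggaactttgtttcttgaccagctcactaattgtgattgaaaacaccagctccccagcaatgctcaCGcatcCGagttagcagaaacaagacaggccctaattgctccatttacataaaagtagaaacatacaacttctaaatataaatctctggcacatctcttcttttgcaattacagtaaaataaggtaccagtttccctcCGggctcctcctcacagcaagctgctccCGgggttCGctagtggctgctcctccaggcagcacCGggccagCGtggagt

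The window of Gm32952, a long noncoding RNA gene (chr2:31552018-31552317, minus strand), lies in a peak of 430 bp over Gm13426 and holds 8 CG pairs. That of Gm13165, also a long noncoding RNA gene (chr4:146239954-146240253, minus strand), lies in a peak of 1582 bp over Vmn2r-ps17 and holds 18. The window of Cox7a2, which encodes a subunit of cytochrome c oxidase (chr9:79759804-79760103, minus strand), lies in a peak of 1029 bp over Gm51685 and holds 20. The window of Inhba, which encodes a subunit of activin (chr13:16011601-16011900, plus strand), lies in a peak of 1309 bp over B230303A05Rik and holds 7. All 4 windows are wholly inside the annotated pseudogene as well. Over the whole table the median was 7 CG pairs. Over the 8 windows that lay whole in a peak it was 6, and the 4 not shown hold 3 to 5. In the whole table, 29.7% of windows hold at least as many as that of Gm13165 and 26.5% at least as many as that of Cox7a2. Only the outermost ends of each gene are annotated in the table used, and a transcript start inside a protein-coding gene, as for Cox7a2, Inhba and Elf1, therefore passes the limit of 2 kb.

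Pseudogene DNA held more peaks per base than other DNA under the same limit, both inside and outside protein-coding genes. Inside protein-coding gene bodies, 392 peaks fell on 3.29 Mb of pseudogene, 119 per Mb (108 to 131), against 70.9 per Mb (70.4 to 71.5) in the remaining DNA of gene bodies, a ratio of 1.68 (1.52 to 1.85). Outside them, 1687 peaks fell on 23.3 Mb, 72.5 per Mb (69.1 to 76.0), against 52.2 per Mb (51.8 to 52.6), a ratio of 1.39 (1.32 to 1.46). The intervals of pseudogene and other DNA do not overlap in either place. Assembly gaps and sequence where reads have no unique place were not taken out of the bases counted. The part of this in the ratios was not tested. Because only 12.4% of pseudogene DNA lies in protein-coding genes against 40.4% of the other DNA, the ratio over both places together was lower than in each, 1.31 (1.25 to 1.37). With pseudogenes of at most 5 kb alone, a setting chosen after seeing the data, both ratios were 1.86, and the ratio was then no higher inside than outside. For the same reason 18.9% of the peaks over pseudogenes (17.2 to 20.6) but 47.9% of other eligible peaks (47.6 to 48.1) lay inside protein-coding genes.

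**Figure D1:**
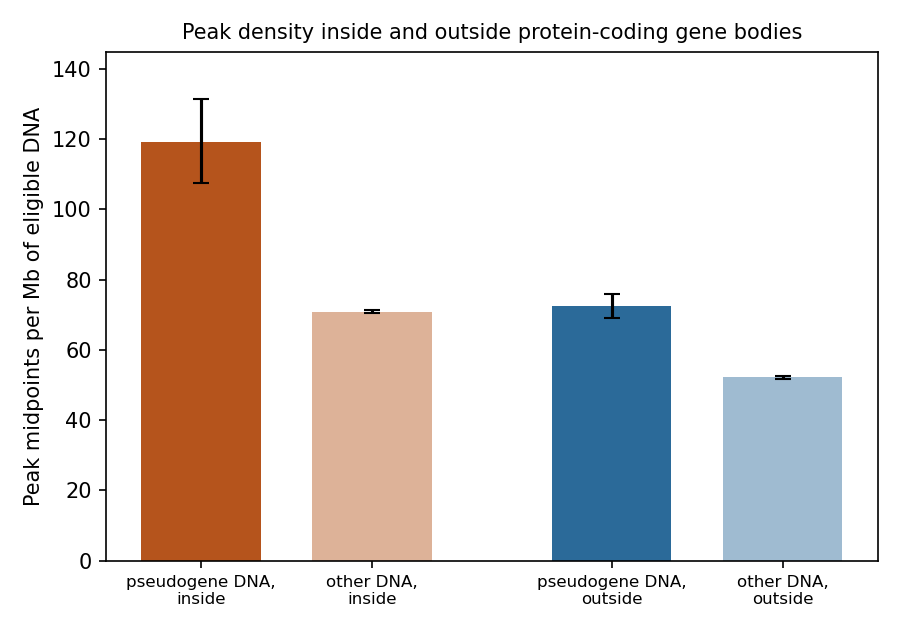
Peak midpoints per Mb (vertical axis, linear from 0) of pseudogene DNA and of other DNA, both on autosomes and over 2 kb from protein-coding gene ends, inside and outside protein-coding gene bodies. Bars are densities and lines exact Poisson 95% intervals. Pseudogene DNA stands at 119 against 70.9 per Mb inside and at 72.5 against 52.2 per Mb outside.

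The difference was seen on most chromosomes. Inside gene bodies 17 of 19 autosomes had a higher density in pseudogenes than in other DNA, with a median ratio of 1.63 and a range from 0.790 on chromosome 3 to 2.56 on chromosome 18. Outside, 17 of 19 were also higher, with a median ratio of 1.42 and a range from 0.837 on chromosome 7 to 1.96 on chromosome 8. On chromosome 7 outside gene bodies, 120 peaks fell on 2.78 Mb of pseudogene, 43.1 per Mb (35.7 to 51.6) against 51.5 per Mb in other DNA. On chromosome 4 inside gene bodies, 67 peaks gave 165 per Mb (128 to 209) against 73.8. Leaving out Vmn2r-ps16 and Vmn2r-ps17 on that chromosome and Pcdhgb8 on chromosome 18, which hold 46 of the peaks inside gene bodies, the genome-wide density inside was 112 per Mb (101 to 125) and the ratio to other DNA 1.58.

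Density fell at the edge of the pseudogene to that of its flanks. Among pseudogenes of at most 5 kb, the density inside protein-coding genes was 130 per Mb (114 to 148) over the pseudogene and 61.2 per Mb (50.4 to 73.7) in the first 500 bp beyond its edges. It was 75.8 per Mb (72.0 to 79.9) at 5 to 10 kb. Outside protein-coding genes the same densities were 96.7 (89.6 to 104), 60.3 (54.3 to 66.8) and 62.2 per Mb (60.0 to 64.4). The ratio to the DNA at 5 to 10 kb was 1.72 inside and 1.56 outside. The ratio to the nearest 500 bp was 2.13 inside (1.70 to 2.66) and 1.60 outside (1.41 to 1.82). Peaks in the list do not overlap, so a peak centred in a short pseudogene takes up part of the flank. The part of this in the ratios was not tested. Density in the flanks outside gene bodies stayed between 57.9 and 63.9 per Mb out to 50 kb, and was 49.3 per Mb farther away.

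**Figure D2:**
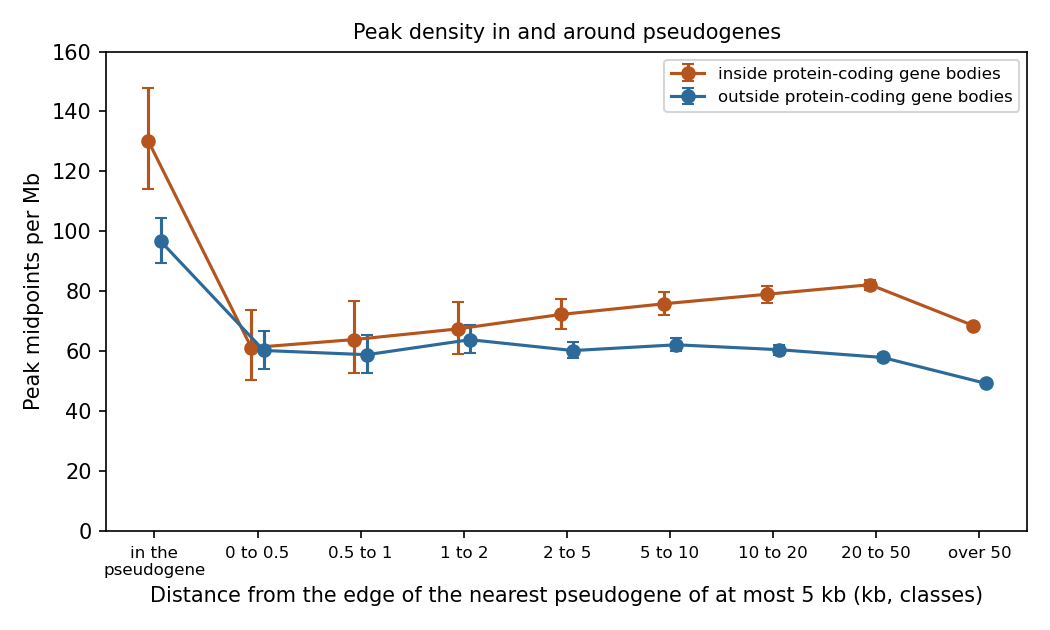
Peak midpoints per Mb (vertical axis, linear from 0) in pseudogenes of at most 5 kb and in classes of distance in kb from their edges (horizontal axis, unequal steps), inside and outside protein-coding gene bodies. Points are densities, lines between them only guide the eye, and error bars are exact Poisson 95% intervals. Both series fall from 130 and 96.7 per Mb in the pseudogene to 61.2 and 60.3 in the first 500 bp beyond it.

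Midpoints were not gathered at the centre of these pseudogenes. With the length cut into 3 equal parts, the midpoint lay in the middle part in 307 of 926 cases (33.2%, 30.2 to 36.2). A peak covered a median of 41.5% of its pseudogene, was wider than it in 163 cases (17.6%, 15.3 to 20.2) and covered all of it in 75 (8.10%, 6.51 to 10.0). Inside protein-coding genes the median cover was 46.3%, and outside 39.4%.

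Most pseudogenes had no peak. Of 9224 autosomal pseudogenes, 222 had no base over 2 kb from a protein-coding end, and of the remaining 9002, 1358 (15.1%, 14.4 to 15.8) held at least 1 peak. Of those, 1093 held 1 peak, 265 held 2 or more and 56 held 5 or more, and 20 peaks lay in more than 1 pseudogene. By the place of the pseudogene's own centre, 283 of 1936 inside protein-coding genes (14.6%, 13.1 to 16.3) and 1075 of 7066 outside (15.2%, 14.4 to 16.1) held a peak. Among the 8152 of at most 5 kb the share was 11.0% (10.4 to 11.7), and the order turned, with 12.6% inside (11.2 to 14.2) and 10.6% outside (9.82 to 11.3).

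The share of pseudogenes with a peak rose with their length, while density per base was lower in longer classes outside gene bodies. Outside protein-coding genes, 4.21% of pseudogenes to 500 bp held a peak (3.20 to 5.52) and 62.4% of those over 10 kb (58.0 to 66.7). In the same classes the density was 144 per Mb (106 to 190) and 59.2 per Mb (55.3 to 63.3). Inside, the share rose from 5.34% (3.55 to 7.95) to 65.9% (51.1 to 78.1), and the density was 193 per Mb (121 to 293) in the shortest and 112 per Mb (94.4 to 132) in the longest class. The 518 pseudogenes over 10 kb, of which the longest spans 429487 bp, held 987 of the 2079 peaks. The median length of all 9002 was 930 bp.

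**Figure D3:**
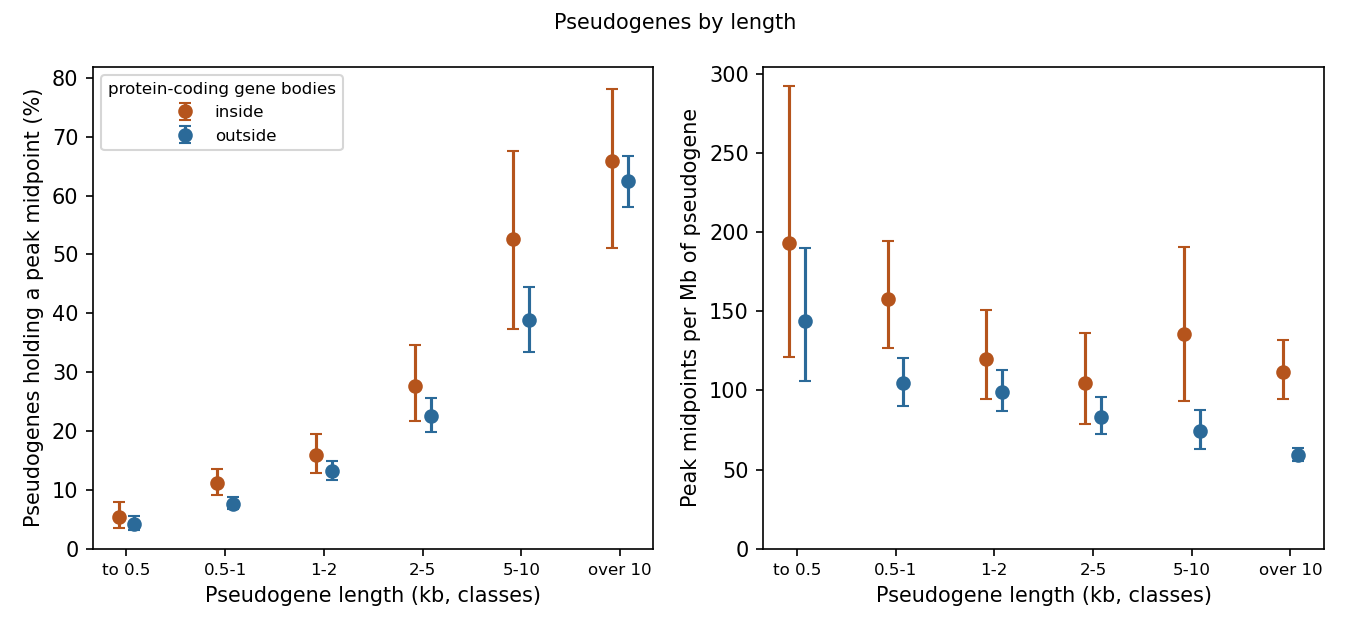
Pseudogenes by length class in kb (horizontal axes), inside and outside protein-coding gene bodies. Left, the percentage holding a peak midpoint with Wilson 95% intervals. Right, peak midpoints per Mb of pseudogene with exact Poisson 95% intervals. The share rises with length from 4.21% to 62.4% outside, and the density falls from 144 to 59.2 per Mb.

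Pseudogenes annotated as transcribed held a peak in a larger share of cases, were longer, and had a density per base close to that of the others. A peak lay in 161 of 412 transcribed pseudogenes (39.1%, 34.5 to 43.9) and in 1197 of 8590 others (13.9%, 13.2 to 14.7). Their median lengths were 3419 bp and 908.5 bp. Per base, transcribed pseudogenes had 79.9 peaks per Mb (71.7 to 88.8) and the others 78.4 (74.7 to 82.1), with overlapping intervals. The groups were not compared at like length. The part of length in these shares and densities was not tested.

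Peaks over pseudogenes were wider in the median than other peaks at the same remove from protein-coding ends inside gene bodies, while outside them the intervals overlap. The median width was 596.5 bp (556 to 641) inside protein-coding genes, where other eligible peaks had 536 bp (533 to 539), and 568 bp (546 to 586) outside, where the others had 545 bp (543 to 549). Peaks over 1 kb wide made up 18.9% inside (15.3 to 23.0) and 16.7% outside (15.0 to 18.5), against 15.1% (14.8 to 15.4) and 15.6% (15.3 to 15.9) of the others, and these intervals overlap in both places. Autosomal peaks within 2 kb of protein-coding ends had a median of 991 bp. Outside gene bodies, 5.04% of peaks over pseudogenes (4.09 to 6.19) had their midpoint in a long noncoding RNA gene, against 15.2% of other eligible peaks (14.9 to 15.4). Inside, the shares were 5.61% (3.74 to 8.35) and 4.95% (4.79 to 5.12). How much pseudogene DNA and other DNA lies in such genes was not counted, so these shares of peaks are a description only.

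The widest peak lay on chromosome 10 at 7390408 to 7393775, 3368 bp, over Gm21321, a pseudogene of 2021 bp (7390164 to 7392184), 52.8 kb from the nearest protein-coding end. The next were 2853 bp over Gm29719 (chromosome 17, 6404756 to 6407608), a transcribed pseudogene, 2771 bp over Mark4-ps (chromosome 17, 53905710 to 53908480), named for a kinase of microtubule-binding proteins, and 2466 bp over Speer4cos (chromosome 5, 15679974 to 15682439), of a family expressed in male germ cells. The widest inside a protein-coding gene was 2391 bp over Gm35666 (chromosome 12, 31895251 to 31897641). Tgif2-ps2, a copy of a homeobox repressor gene, Gm4349, Gm46561 and Gm4899 had peaks of 2389, 2364, 2316 and 2145 bp. Each of the 10 widest peaks was at least 6.88 kb from a protein-coding end.

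Ribosomal protein pseudogenes, copies of the genes of the ribosome's subunits, had the highest density per base of the 3 families with at least 100 pseudogenes, beside olfactory and vomeronasal receptors. A peak lay in 38 of 283 (13.4%, 9.94 to 17.9), an interval that takes in the 15.1% of all eligible pseudogenes. Per base there were 39 peaks on 223 kb, 175 per Mb (124 to 239) against 78.6 per Mb over all eligible pseudogenes. To compare at like length, those of at most 1 kb were set beside all other pseudogenes of at most 1 kb. Inside protein-coding genes, 14 of 69 (20.3%, 12.5 to 31.2) held a peak, against 97 of 1145 others (8.47%, 6.99 to 10.2). Outside, 20 of 193 (10.4%, 6.81 to 15.5) held one, against 225 of 3530 (6.37%, 5.61 to 7.23), and these intervals overlap. The densities were 352 per Mb (192 to 590) against 152 (124 to 186) inside and 179 (110 to 277) against 107 (93.4 to 122) outside. Genes of the large subunit (Rpl) had a peak in 21 of 177 copies and genes of the small subunit (Rps) in 16 of 100.

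The copies with a peak were unevenly spread over parents, in groups picked out after the values were seen. Of 9 copies of Rpl36, 7 held a peak, on 6 chromosomes, and each of these peaks, of 449 to 1468 bp, was wider than its copy. Among them were Rpl36-ps8 (chromosome 4, 116839880 to 116840244, 365 bp) under a peak of 1468 bp and Rpl36-ps2 (chromosome 11, 76601281 to 76601677, 397 bp) under a peak of 1112 bp. Rpl15 had a peak in 4 of 5 copies, including Rpl15-ps2 (chromosome 9, 72060561 to 72061620) with a peak of 1033 bp. For other parents, 0 of 13 copies of Rpl21, 0 of 12 of Rpl23a and 0 of 10 each of Rpl17 and Rpl7a held a peak. The limit of 3 counts of n allows up to 23.1% for 13 copies, 25% for 12 and 30% for 10. Each of these limits takes in the 13.4% of all ribosomal copies. The median lengths of these copies, 527.5 to 853.5 bp, exceed the 366 bp of Rpl36 copies. By the rule for names, Mrpl23-ps1, a copy of a gene of the mitochondrial ribosome, Rpl10a-ps1, Rpl13-ps1 and Rpl13-ps6 had peaks of 871, 569, 780 and 469 bp. Mrpl27-ps and Mrpl48-ps had none, with the nearest peak 3.13 and 13.6 kb away. Copies of the same ribosomal gene share sequence with it and with each other, but how alike they are was not measured. The treatment of reads with several equal placements is not stated in the labels. Its part in these values was not tested.

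Copies of other housekeeping genes were few, and their intervals are wide beside the 15.1% of all pseudogenes, or 11.0% of those of at most 5 kb. A peak lay in 2 of 20 translation factor pseudogenes (10%, 2.79 to 30.1), Eif1-ps2 and Eif4a-ps4, with widths of 309 and 330 bp. It lay in 2 of 22 copies of respiratory chain genes (9.09%, 2.53 to 27.8), Ndufs5-ps with 679 bp and Ndufab1-ps with 261 bp, both from complex I. Of 13 glycolysis copies 1 held a peak, Pgam1-ps1 with 795 bp, and of 20 chaperone copies 1, Hsp25-ps1 with 818 bp. Proteasome and ubiquitin genes had a peak in 3 of 8 copies, Psmb5-ps, Psmb6-ps2 and Ubb-ps, with widths of 459, 563 and 546 bp. Among high mobility group copies, of chromatin proteins, Hmga2-ps1 had a peak of 1250 bp and the other 14 of 15 had none, all 13 Hmgb copies among them, which allows a share of up to 23.1% there.

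Pseudogenes of olfactory and of vomeronasal receptors held a peak less often than the 15.1% of all eligible pseudogenes, though type 2 vomeronasal copies alone did not. Where such pseudogenes had many peaks, the annotated span was long. Olfactory receptor pseudogenes held a peak in 8 of 305 cases (2.62%, 1.33 to 5.09) and 10 peaks on 309 kb, 32.4 per Mb (15.5 to 59.5). Olfr400-ps1 (chromosome 11, 74104741 to 74110891) held 3 peaks of up to 1054 bp, and Olfr1372-ps1, Olfr268-ps1, Olfr280-ps1 and Olfr377-ps1 held 1 each, of 617, 548, 570 and 386 bp. Olfr1001-ps1 and Olfr1003-ps1 had their nearest peak 61.3 and 41.6 kb away. Vomeronasal receptor pseudogenes, of pheromone receptors, held one in 25 of 260 cases (9.62%, 6.60 to 13.8), but in 4 of 202 of at most 5 kb (1.98%), where 11.0% of all pseudogenes of that length did. The type 1 receptors (Vmn1r) had a peak in 3 of 135 (2.22%, 0.759 to 6.33) and the type 2 receptors (Vmn2r) in 22 of 125 (17.6%, 11.9 to 25.2). Of at most 5 kb, 3 of 134 type 1 and 1 of 68 type 2 copies held one. Of the 127 peaks over vomeronasal pseudogenes, 72 lay in Vmn2r-ps15, Vmn2r-ps16 and Vmn2r-ps17 on chromosome 4, which span 74243, 160377 and 140140 bp between positions 145701675 and 146605510. The centre of Vmn2r-ps16 lies in the zinc finger genes Zfp981 and Zfp993 and that of Vmn2r-ps17 in Zfp600, and Znf41-ps, a zinc finger pseudogene at 145789515 to 145831978, held 10 more peaks.

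**Figure D4:**
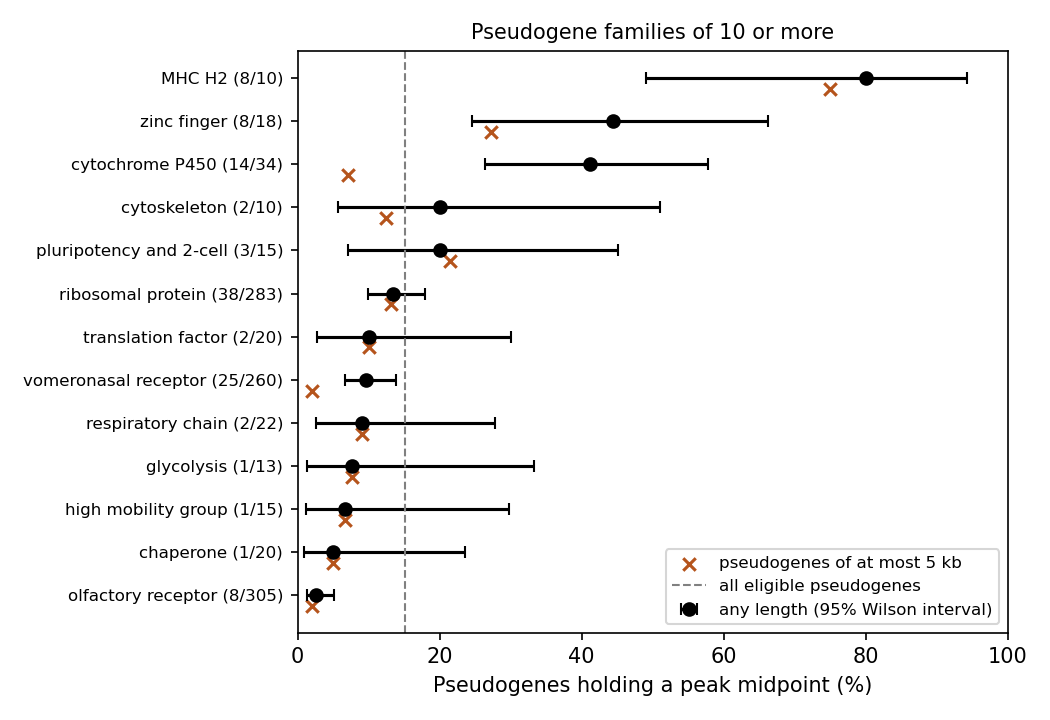
Percentage of pseudogenes holding a peak midpoint (horizontal axis) for the 13 families of 10 or more pseudogenes, with the counts beside each name. Circles are all lengths with Wilson 95% intervals, crosses are pseudogenes of at most 5 kb, and the dashed line is the 15.1% of all eligible pseudogenes. Olfactory receptor pseudogenes stand lowest at 2.62%, and cytochrome P450 copies move from 41.2% to 7.14% when long spans are left out.

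Pseudogenes of the major histocompatibility complex, whose genes present antigens to T cells, held a peak in 8 of 10 cases (80%, 49.0 to 94.3), all on chromosome 17. H2-Bl, H2-Q3 and H2-Q5 had peaks of 1887, 1878 and 1747 bp, H2-T10, H2-M6-ps and H2-Pb of 1016, 962 and 576 bp, H2-K2 had 2 peaks of up to 949 bp, and H2-M10.5-ps1 had a peak of 251 bp. H2-Ea and H2-Pa had none, with the nearest peak at 0.895 and 1.01 kb. Their density was 262 per Mb (120 to 498), on 34.3 kb. Zinc finger pseudogenes held a peak in 8 of 18 cases (44.4%, 24.6 to 66.3), with Zfp422-ps at 2117 bp, Zfp520-ps at 1253 bp, Zfp389 at 935 bp and Zfp133-ps at 346 bp. Their median length was 4679 bp, and 3 of the 11 of at most 5 kb (27.3%) held one. Their density of 119 per Mb (71.4 to 185) has an interval that takes in the 78.6 of all pseudogenes. Of the 19 peaks behind it, 10 lay in Znf41-ps. Cytochrome P450 pseudogenes, remnants of genes that oxidise lipids and drugs, held a peak in 14 of 34 cases (41.2%, 26.4 to 57.8), but their median length was 9169 bp and their density 49.3 per Mb (31.3 to 74.0). Cyp2b26-ps, Cyp2b27-ps and Cyp2b28-ps in 1 cluster on chromosome 7 held 1, 2 and 3 peaks of 291 to 734 bp.

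Copies of pluripotency and early embryonic genes held a peak in 3 of 15 cases (20%, 7.05 to 45.2), a wide interval that takes in the 15.1% of all pseudogenes. Of those of at most 5 kb, 3 of 14 (21.4%) held one, beside 11.0% of all pseudogenes of that length. With the family taken by symbol or synonym the share was 29.4%. Pou5f1-rs4 (chromosome 3, 129433673 to 129434712) and Pou5f1-rs6 (chromosome 14, 17105558 to 17106286), related to the gene of the pluripotency factor OCT4, had peaks of 814 and 325 bp. Dppa5c (chromosome 9, 78271935 to 78273046), of a family expressed in pluripotent cells, had a peak of 1466 bp. Nanog-ps2 had none, with the nearest at 11.9 kb, and the nearest peak of Dppa5b overlapped it with its midpoint outside. Of 47 pseudogenes of Obox, a cluster of homeobox genes of oocytes and early embryos, 0 held a peak over 106 kb, which allows a share of up to 6.38%. Pseudogenes named Defa (0 of 11), Ear (0 of 10) and Frg (0 of 12) also held none, which allows up to 27.3%, 30% and 25%. The names of 7313 of the 9002 pseudogenes, such as Gm or LOC with a number, show no family, and 1072 of them (14.7%, 13.9 to 15.5) held a peak.

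Pseudogenes were compared by whether the parent gene had a peak at its ends, and the share holding a peak and the density per base gave different pictures. Of 1496 pseudogenes named with -ps or -rs, 647 could be matched by symbol to a protein-coding parent. A pseudogene peak was present in 116 of 593 whose parent had a peak within 500 bp of an annotated end (19.6%, 16.6 to 22.9) and in 11 of 54 whose parent had none (20.4%, 11.8 to 32.9). The median lengths of these groups were 751 and 1828.5 bp. Per base, the first held 129 peaks, 133 per Mb (111 to 158), and the other 19, 50.3 per Mb (30.3 to 78.6). These intervals do not overlap, but they take each peak as separate, and the 19 peaks lie in 11 pseudogenes. The difference in density is therefore a description only. Without ribosomal copies the densities were 121 per Mb (97.5 to 148) and 51.2 per Mb (30.8 to 79.9). Of the 19 peaks, Ccl19-ps2, of 82982 bp, held 5 and Nlrp5-ps, of 92413 bp, held 4. The groups were not compared at like length, and the part of length in these densities was not tested. The 11 pseudogenes with a peak whose parent had none, named here after their values were seen, included Dnmt3l-ps1, a copy of the gene of a cofactor of DNA methylation, and Nfyc-ps and Ybx1-ps2, copies of genes of a transcription factor subunit and a nucleic acid binding protein. Among ribosomal copies, 266 of 276 had a parent with such a peak, and the 10 others were all copies of Rpl17. Only the outermost ends of a parent are annotated, so a parent with a peak at an internal transcript start alone is counted as having none.

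The 12 pseudogenes with the most peaks held 11 to 31 each, among them 3 tied for the tenth place at 11, and their surroundings differed widely in peak density, from 2.30 to 13.9 per 100 kb. The rate in each was set beside that of other eligible DNA within 200 kb, as a description, since the count chose them. Vmn2r-ps16 held 31 peaks, 22.1 per 100 kb against 6.47 around it, and Vmn2r-ps17 held 29, 22.6 against 5.62. The rate in 2610005L07Rik, a transcribed pseudogene on chromosome 8 (20385782 to 20424814), was 28.2 against 13.5. Gm14412 on chromosome 2 stood at 14.6 against 13.3 and Vmn2r-ps15 at 17.1 against 13.9. Pcdhgb8, a pseudogene in the gamma protocadherin cluster of cell adhesion genes on chromosome 18, stood at 17.7 against 10.3. The lowest rates of the 12 were in Gm18728, whose span of 429487 bp on chromosome 1 held 15 peaks, 3.49 against 3 per 100 kb, in B230303A05Rik on chromosome 13, with 5.34 against 2.30, and in Rnls, a gene annotated here as a transcribed pseudogene, with 5.50 against 5.05.

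**Figure D5:**
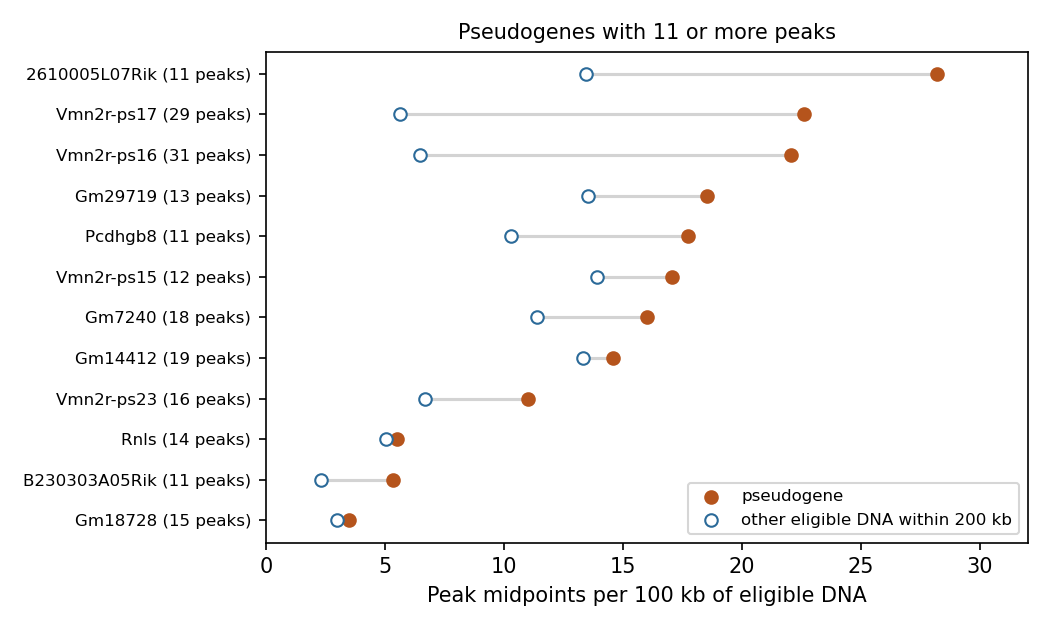
Peak midpoints per 100 kb of eligible DNA (horizontal axis) in the 12 pseudogenes with 11 or more peaks (filled) and in other eligible DNA within 200 kb of each (open), with the number of peaks beside each name. In all 12 the pseudogene has the higher rate, by the widest margin in Vmn2r-ps17 at 22.6 against 5.62.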

How the data were processed

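The deposited values are the start and end of each merged peak, made by the authors, with no score or count. Trimmomatic 0.36, MACS2 2.2.7.1 and Bowtie2 2.4.2, with the builds GRCm38 and mm10, are named per the submitters' processing notes, without role or order. How peaks were merged and how duplicates and repeated sequence were handled is not stated there. All 18 libraries entered the list together.

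Gene positions came from RefSeq for GRCm38.p6 (49997 genes), from which 348 with scaffold coordinates were left out. No genome sequence was used. DNA counted as eligible where it lay between the first and last peak of an autosome and over 2 kb from protein-coding ends. Peaks were placed by midpoint and pseudogenes by their centre. Families were taken from 18 symbol patterns, 13 of them with 10 or more pseudogenes, and from shared leading letters with at least 10. The pattern for Zfp42 was narrowed after it had matched Zfp422-ps. The members and lists were chosen with earlier results of these data known. Names in the text are the 10 widest peaks, the 10 pseudogenes with the most peaks (12 with ties), and up to 4 with and 2 without a peak per family by symbol, plus those said to be picked later and others of the same families. Placement was checked on simulated peaks. The work was done with pandas 2.3.3, scipy 1.17.1, numpy 2.4.6 and matplotlib 3.10.9 under Python 3.11.15.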

Additional observations from a re-analysis of the deposited data

Results flagged for a closer look

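Pseudogenes outside the rule also held peaks. On chromosome X, 183 peaks lay over pseudogenes under the same limit of 2 kb, 54.0 per Mb (46.4 to 62.4) against 28.0 per Mb in other eligible DNA of that chromosome, and 104 of 987 pseudogenes held one (10.5%, 8.77 to 12.6). Pseudogenes of immune receptor gene segments, which carry other annotation types, held 8 peaks on autosomes, in 8 of 176 (4.55%, 2.32 to 8.71). Chromosome Y had 2, below the 3 counts taken as the floor. These values are pointed out because they lie in data that the comparisons above do not use.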

How the results depend on the processing

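Of 76 values recomputed for 21 results under other settings, 58 stayed within the main value's 95% interval, or within 1.5 times it for the count of peaks, 18 moved, and the density ratios stayed above 1 in every setting they were run in. The intervals of small families are wide, so a value that stayed within them shows little. Zinc finger copies count as stayed at 27.3% with pseudogenes of at most 5 kb, against 44.4%. Pluripotency copies do so at 29.4% by symbol or synonym, against 20%. Limits of 1 and 5 kb and leaving out the surroundings of non-coding RNA gene ends moved none. With peaks wider than the median of 578 bp alone, 1023 peaks remained, 8.37% of pseudogenes inside and 8.69% outside held one, the density ratio inside was 1.94, and median widths were 883 and 877 bp, as the setting keeps only wide peaks. With the type pseudogene alone, 14.0% of those outside held a peak. With an overlap of 1 bp in place of the midpoint, 18.2% inside and 19.1% outside did. With pseudogenes of at most 5 kb, a setting chosen after seeing the data, there were 924 peaks, 26.0% of them inside, 12.6% of pseudogenes inside and 10.6% outside held one, the density ratios were both 1.86, the median width outside was 590.5 bp, and vomeronasal and cytochrome P450 copies stood at 1.98% and 7.14%. The cause of these moves beyond the shorter spans was not tested. Depth per library is unknown, so an absent peak cannot be told from low coverage or from reads without a unique place. No paired analysis was possible because the list carries no library.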
